A study of Mus musculus with 12 samples.

Results

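The data described here are the RNA levels of single-positive thymocytes of mice that met, or did not meet, the antigen of a transgenic T cell receptor. By their titles, 6 of the 12 arrays of the series belong to this comparison: 3 of TCR single-positive cells and 3 of TCR:HEL single-positive cells. Both kinds of mice were on the B10 background, were 6 to 8 weeks old, received no treatment and carried the receptor transgene, and the TCR:HEL mice also carried HEL, by common usage hen egg lysozyme, the receptor's antigen. The labels call the single-positive cells CD4+ and present the TCR cells as positively selected and the TCR:HEL cells as negatively selected. The other 6 arrays, 3 of TCR and 3 of TCR:HEL double-positive thymocytes, entered the fit and serve as a second level of reference. The promoter that drives HEL, the receptor line and the sort gates are not given in the sources used here. RNA of 100000 to 1000000 sorted cells per sample was amplified, labelled with biotin and hybridized to an Affymetrix MOE430B array, which holds only part of the mouse genes.

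Thymocytes pass from a double-positive stage, with both CD4 and CD8 on the surface, to a single-positive stage once their T cell receptor has bound a self ligand. A weak signal supports survival and maturation, whereas a strong signal from antigen in the thymus leads to deletion or, in some cells, to an agonist-selected fate such as that of regulatory T cells. Strong signals are known to raise early response genes, among them the NR4A nuclear receptors, and feedback inhibitors of the MAP kinase cascade. Maturing single-positive cells that are ready to leave the thymus gain a separate set of genes, which includes the GIMAP family of small GTPases.

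The sort was checked through Cd8a, since Cd4 was not measured here. Cd8a signals were 731, 705 and 516 in the TCR and 986, 1558 and 810 in the TCR:HEL samples, against means of 7311 in TCR and 5612 in TCR:HEL double-positive cells. All 6 single-positive arrays lay far below the double-positive means, and the TCR:HEL arrays lay above the TCR arrays. That last difference, 0.73 ± 0.27 (SE) on the log2 scale, did not pass the test (adjusted p = 0.536). In bulk RNA of this kind, fewer cells of a type and less RNA per cell cannot be told apart.

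Every array had been scaled to the same trimmed mean of signals, 150.0 within rounding, and the median signal ran from 63.0 to 81.3. A pair of arrays stood apart among the 6. In a principal component analysis the first component, with 30.3% of the variance, placed TCR replicate 1 at -69.5 and the other arrays between -6.45 and 30.2, and the second, with 22.1%, placed TCR:HEL replicate 1 at -58.6. These were also the arrays with the lowest ratios of 5′ to 3′ Gapdh signal, a measure of RNA integrity and amplification, at 0.0379 and 0.0856 against 0.107 to 0.453 on the other 10 arrays. The actin ratio was lowest in TCR replicate 1 (0.120) and was 0.376 in TCR:HEL replicate 1, within the 0.169 to 0.557 of the other arrays. They were hybridized on the same day, apart from the others. Results are therefore also given without both replicate 1 arrays.

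Of 13703 probe sets tested, 20 were higher in TCR:HEL than in TCR single-positive cells (0.146%) and 10 were lower (0.073%) at an adjusted p under 0.05. At an unadjusted p under 0.05 the counts were 550 and 435. The groups did not overlap for any of the 30, and over all probe sets tested they did not overlap in 5.74% on the higher and 4.89% on the lower side. Median change over all probe sets was 0.01 on the log2(signal + 16) scale, on which all fold changes are given and which understates the change of dim genes. A single gene symbol was known for 18 of the 20 and 7 of the 10, which stand for 16 and 7 genes.

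Replicate numbers were taken as pairs from the correlation of deviations in these same data. Passes with the number as a block are therefore no independent support. The replicate 1 single-positive arrays shared a hybridization day, as did those of replicate 3, while those of replicate 2 fell in different periods. With the replicate block 47 probe sets passed, 33 higher and 14 lower, among them all 30. With the hybridization period as a block 33 passed, of which 28 were among the 30. Without both replicate 1 arrays 16 passed, of which 13 were among the 30. Of the 25 probe sets with a symbol, 10 passed whichever of the 6 single-positive arrays was left out: 2 of Ikzf2, 2 of Cdca8, and those of Crispld2, Dusp4, Trpm1, Niban1, 2610318N02Rik and Tmie. The sign of all 25 stayed the same in each of these fits.

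**Figure D1:**
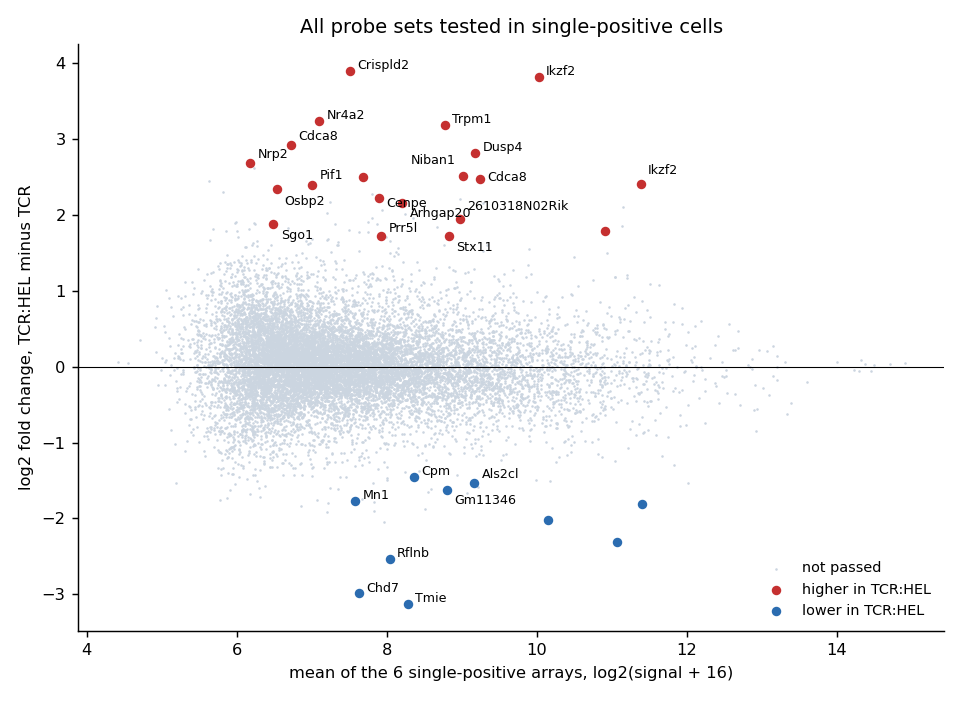
Log2 fold change of TCR:HEL over TCR single-positive cells against the mean log2(signal + 16) of the 6 single-positive arrays, with a point for each of the 13703 probe sets tested. The 20 higher (red) and 10 lower (blue) probe sets that passed lie at the edges of the cloud, and those with a single gene symbol are named.

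Of the genes that rose, transcription factors and signal regulators are described first. Ikzf2 encodes Helios, an Ikaros family factor that marks thymocytes with strong receptor signals and many regulatory T cells. Its brighter probe set gave 887, 1327 and 1291 in TCR and 7052, 5335 and 6204 in TCR:HEL single-positive cells, a log2 change of 2.40 ± 0.26 (SE, 3 against 3 arrays, adjusted p = 0.000565). In double-positive cells the same probe set lay between 1988 and 3307, so that TCR single-positive arrays were all below and TCR:HEL single-positive arrays all above that range. A second Ikzf2 probe set gave 143, 189 and 640 against 2881, 3293 and 6238, a log2 change of 3.82 ± 0.51 (adjusted p = 0.00325).

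Dusp4 encodes a nuclear phosphatase that turns off MAP kinases. Its signals were 228, 218 and 167 in TCR and 1567, 1773 and 1268 in TCR:HEL single-positive cells, and the log2 change was 2.82 ± 0.29 (adjusted p = 0.000565). The 3 pairs of same-numbered samples gave 2.70, 2.93 and 2.81, and double-positive cells of both kinds lay between the single-positive groups, from 439 to 889. Among 14 measured negative regulators that act downstream of the receptor and on MAP kinases, Dusp4 alone passed. The shares that passed over all probe sets tested were 0.146% higher and 0.073% lower. Dusp5, a related phosphatase specific for ERK, had 646, 419 and 367 against 1415, 938 and 872, without overlap, but its change of 1.15 ± 0.35 did not pass (adjusted p = 0.356).

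The orphan nuclear receptor Nr4a2 had signals of 46.0, 24.2 and 19.5 in TCR and 816, 219 and 365 in TCR:HEL single-positive cells. The groups did not overlap, TCR:HEL replicate 1 was the highest, and the log2 change was 3.24 ± 0.51 (adjusted p = 0.0132). The TCR and the double-positive signals were under the arrays' medians, so the fold of this probe set rests on dim TCR signals. Like 1 other of the 30, it passed the filter on low signal through the 3 TCR:HEL single-positive arrays alone. Crispld2, Trpm1 and Osbp2, described below, also needed these arrays to reach the filter's minimum of 3. Elsewhere their signals were over the median on 1 TCR:HEL double-positive, 2 TCR single-positive and 2 TCR double-positive arrays, in that order. The probe sets of Nr4a2 disagree: a brighter one changed by 1.16 (adjusted p = 0.56) and another by -0.48 (adjusted p = 0.926). Its call was lost without TCR replicate 3 (adjusted p = 0.0574), TCR:HEL replicate 1 (0.108), TCR:HEL replicate 3 (0.0619) or both replicate 1 arrays (0.141).

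Its relative Nr4a3 had 1142, 865 and 1284 against 6865, 4549 and 3315, with group means of 40.4 and 74.5 in double-positive cells. The single-positive groups were far apart, yet the change of 2.10 ± 0.44 missed the threshold (adjusted p = 0.0708) and passed with the replicate block (0.0484). Fosl2, an AP-1 subunit, had 42.1, 135 and 142 against 550, 396 and 297, again without overlap, and did not pass either (1.91 ± 0.50, adjusted p = 0.221). Egr3, an early growth response factor, had 602, 338 and 837 against 718, 781 and 529, which overlapped. Of 11 measured receptor-induced transcription factors 1 rose by its brightest probe set, Ikzf2, none fell, and the median change was 0.27. For comparison, 0.146% of all probe sets tested were higher and 0.073% lower. The summed signal of the 11 factors ran from 7164 to 10506 in TCR and from 14751 to 23436 in TCR:HEL single-positive cells. Their largest gains were Ikzf2 and Nr4a3.

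Of 16 measured genes known from regulatory T cells and agonist selection, 4 rose, Ikzf2 and Dusp4 included, and none fell. Over all probe sets tested 0.146% were higher. This list, like the others here, was chosen with earlier results of these data known, so its count is no independent support. The median change of the 16 was 0.28. Niban1, linked to the stress response of the endoplasmic reticulum, had 225, 179 and 202 in TCR and 1269, 1283 and 1110 in TCR:HEL single-positive cells. Each group was tight, and the log2 change was 2.51 ± 0.29 (adjusted p = 0.000941). Arhgap20, a GTPase-activating protein, had 124, 196 and 76.6 against 658, 541 and 639, a log2 change of 2.16 ± 0.35 (adjusted p = 0.0151). Double-positive cells had low signals of both genes, at most 218 for Niban1 and 54.5 for Arhgap20.

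The Arhgap20 call held without TCR replicate 2 (adjusted p = 0.0107) and was lost without any other single-positive array (0.0501 to 0.0894) and without both replicate 1 arrays (0.203). The other members of that list spread in both directions. Itgae, the integrin subunit CD103, had 206, 180 and 127 against 514, 412 and 282, without overlap (1.15 ± 0.31, adjusted p = 0.268). Pde3b, a cyclic nucleotide phosphodiesterase named here after its values were seen, fell from 5830, 3939 and 5063 to 2138, 2107 and 2194. Members of the list were not sorted by the direction they take in regulatory T cells, so a fall does not by itself go against it. Its change of -1.18 ± 0.26 missed the threshold (adjusted p = 0.0914) and passed with the replicate block (0.0443). Cd69 belongs to another list, that of costimulatory and inhibitory receptors. This early activation marker, which holds thymocytes in the thymus, had 946, 1365 and 2036 against 3727, 2606 and 3284 (1.19 ± 0.35, adjusted p = 0.306).

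**Figure D2:**
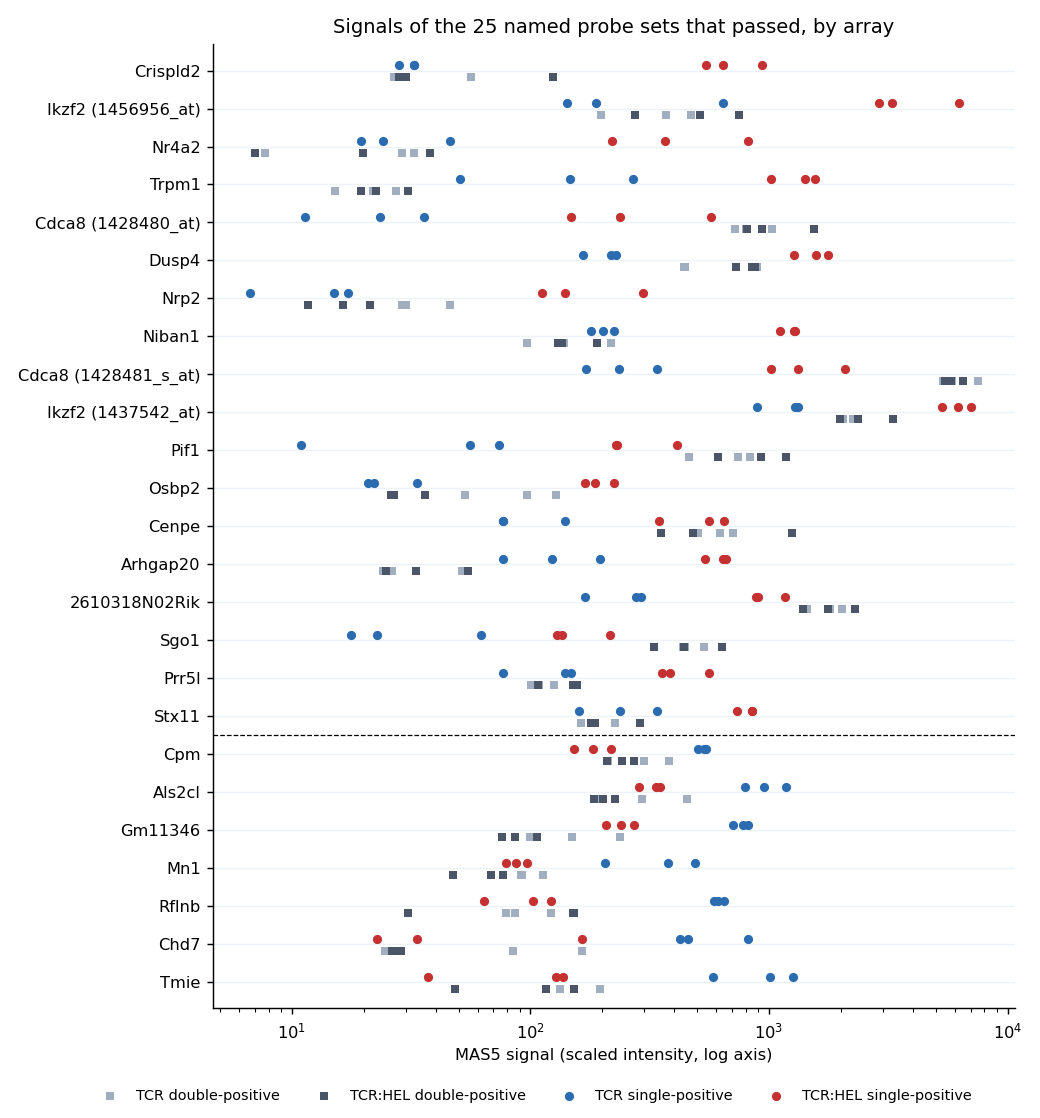
Signal of each array (log axis) for the 25 probe sets with a gene symbol that passed, ordered by fold change, with TCR in blue and TCR:HEL in red for single-positive cells and squares for double-positive cells. Above the dashed line all red points lie to the right of the blue ones, and below it to the left, and the double-positive squares lie beyond the red points for Cdca8, Sgo1 and 2610318N02Rik but near or below the blue points for Crispld2, Trpm1 and Niban1.

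A further group of genes that rose acts at the cell surface, outside the cell or in membrane traffic. Crispld2, a secreted protein known in human blood for binding lipopolysaccharide, had signals of 28.2, 32.4 and 32.6 in TCR and 934, 542 and 641 in TCR:HEL single-positive cells (3.90 ± 0.42, adjusted p = 0.000565). The TCR signals were under the arrays' medians, so the size of the fold rests on dim signals. Double-positive arrays of both kinds had 26.7 to 124, close to the TCR single-positive level. A pair of other Crispld2 probe sets changed by 1.65 (adjusted p = 0.133) and 1.39 (adjusted p = 0.563).

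Trpm1, a cation channel best known from melanocytes and retinal bipolar cells, had 50.5, 269 and 146 in TCR and 1410, 1554 and 1016 in TCR:HEL single-positive cells. The log2 change was 3.18 ± 0.41 (adjusted p = 0.00281), with double-positive arrays at 15.2 to 30.7. A second probe set of Trpm1 was near 40 in both groups and changed by 0.04 (adjusted p = 0.997).

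Nrp2 encodes neuropilin 2, a receptor for semaphorins and vascular endothelial growth factors. Its signals were 15.0, 6.66 and 17.1 against 296, 139 and 111 (2.68 ± 0.48, adjusted p = 0.0278), and its second probe set changed by 0.68 (adjusted p = 0.87). The TCR and the double-positive signals were under the arrays' medians, so Nrp2 is the other probe set that passed the filter through the TCR:HEL single-positive arrays alone. Its call was lost without any 1 of the 6 arrays (adjusted p = 0.0619 to 0.264) and without both replicate 1 arrays (0.333).

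Among genes of membrane traffic and signalling complexes, Osbp2, a lipid-binding protein of the oxysterol-binding family, had 33.3, 22.1 and 20.8 in TCR and 223, 187 and 170 in TCR:HEL single-positive cells. Its log2 change was 2.34 ± 0.35 (adjusted p = 0.00867). The call was lost without TCR:HEL replicate 1 (0.0778), without TCR:HEL replicate 2 (0.0501) and without both replicate 1 arrays (0.0787). The TCR signals of Osbp2 were under the arrays' medians, so the size of this fold rests on dim signals. Stx11, a syntaxin needed for granule release by cytotoxic cells, had 338, 238 and 161 against 738, 849 and 851 (1.72 ± 0.29, adjusted p = 0.0214). The Stx11 call held without TCR replicate 1 (0.0171) and without both replicate 1 arrays (0.0418), and was lost without any other single array (0.0708 to 0.106). Prr5l, which binds the mTORC2 kinase complex, had 149, 140 and 76.4 against 384, 357 and 561 (1.73 ± 0.29, adjusted p = 0.0214). Without TCR replicate 3, TCR:HEL replicate 1, 2 or 3, or both replicate 1 arrays, its adjusted p rose to between 0.0501 and 0.0995. None of these 3 genes had overlapping groups, and Stx11 and Prr5l had other probe sets that moved up without passing (adjusted p of 0.304 for Stx11, 0.134 and 0.289 for Prr5l).

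Another set of genes that rose serves cell division. The promoters of Cdca8, Cenpe and 2610318N02Rik are shown because each holds at least 1 CCAAT box, a DNA motif that many promoters of other genes hold too. No role is given here for 2610318N02Rik. It is described beside the others for its motifs and its high double-positive signals, and whether it serves cell division was not tested. Dividing cells raise their mitotic genes late in the cell cycle through CCAAT boxes and the cell cycle homology region (CHR). The sequences are the 250 bases before the annotated start, 5′ to 3′ on the gene's own strand, from RefSeq on GRCm38.p6. Capitals mark CCAAT boxes (CCAAT, or ATTGG on the other strand), the CHR (TTTGAA, or TTCAAA on the other strand) and the cyclic AMP response element (CRE, TGACGTCA).
Cdca8, chr4:124936918-124937167, minus strand: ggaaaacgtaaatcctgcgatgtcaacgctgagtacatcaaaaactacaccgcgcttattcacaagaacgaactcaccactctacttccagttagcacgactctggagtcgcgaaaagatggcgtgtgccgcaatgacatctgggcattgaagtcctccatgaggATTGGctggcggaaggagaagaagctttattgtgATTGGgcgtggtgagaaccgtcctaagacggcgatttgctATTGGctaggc
Cenpe, chr3:135212313-135212562, plus strand: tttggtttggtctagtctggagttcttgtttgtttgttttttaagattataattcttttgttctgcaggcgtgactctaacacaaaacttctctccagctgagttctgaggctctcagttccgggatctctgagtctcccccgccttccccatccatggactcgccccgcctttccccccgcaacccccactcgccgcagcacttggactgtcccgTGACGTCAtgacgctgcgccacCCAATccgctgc
2610318N02Rik, chr16:17125203-17125452, minus strand: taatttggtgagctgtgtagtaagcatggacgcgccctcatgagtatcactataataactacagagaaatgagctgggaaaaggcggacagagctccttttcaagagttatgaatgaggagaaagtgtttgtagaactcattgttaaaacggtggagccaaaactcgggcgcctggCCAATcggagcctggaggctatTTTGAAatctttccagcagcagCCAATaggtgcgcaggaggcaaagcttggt

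The Cdca8 promoter holds 3 CCAAT boxes, which begin 85, 51 and 11 bases before the start. In 2610318N02Rik, a gene without a role given here, a CHR lies 52 bases before the start, between CCAAT boxes at 74 and 30. Cenpe has a CCAAT box at 12 and a CRE at 34 bases. On either strand CCAAT was present in 33.8% of 32851 mouse promoters of this length, the CHR in 16% and the CRE in 1.55%. Over all 48 measured mitosis and kinetochore genes, moved or not, 40 had a promoter in the table, and 66.7% of their 45 promoters held CCAAT, 40% the CHR and 8.89% the CRE. For 35 measured DNA replication genes, 27 with promoters, the shares of 31 promoters were 61.3%, 16.1% and 6.45%. Of the 18 promoters of 13 genes that rose, 8 held CCAAT, 2 the CHR and 1 the CRE. Not all of them are like those shown, which were picked for their motifs. The Sgo1 window holds none of the 3 motifs, while CCAAT also stands in promoters of Crispld2, Prr5l and Trpm1 and the CHR in 1 of Trpm1, which are not known as mitotic genes. A match in these windows is a description of letters, not a binding site.

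Cdca8 encodes borealin, a subunit of the chromosomal passenger complex that corrects attachment of chromosomes to the spindle. The signals of the dimmer probe set that passed were 11.3, 23.5 and 35.9 in TCR and 148, 572 and 237 in TCR:HEL single-positive cells (2.92 ± 0.41, adjusted p = 0.00554), and those of the brighter one 339, 236 and 172 against 1319, 2085 and 1019 (2.48 ± 0.30, adjusted p = 0.00172). TCR:HEL replicate 2 was the highest array by both. Double-positive cells stood well above either group, at 720 to 1548 and 5355 to 7539. The brightest Cdca8 probe set went from a mean of 1357 to 4356 (1.85 ± 0.37, adjusted p = 0.0602) and passed with the replicate block (0.025) and without both replicate 1 arrays (0.041).

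Cenpe, the kinesin that moves chromosomes along the spindle, had 76.8, 139 and 76.9 in TCR and 558, 649 and 345 in TCR:HEL single-positive cells (2.23 ± 0.40, adjusted p = 0.0308). Sgo1, the shugoshin that guards cohesion at centromeres, had 22.8, 62.2 and 17.8 against 136, 215 and 130 (1.88 ± 0.35, adjusted p = 0.0341). Pif1, a DNA helicase that acts at telomeres and replication forks, had 73.9, 56.0 and 10.9 against 229, 411 and 230 (2.40 ± 0.42, adjusted p = 0.0277). The Cenpe and Sgo1 calls held without TCR replicate 2 (0.0467 and 0.0107) and were lost without any other single array (0.0605 to 0.179 and 0.0793 to 0.2) and without both replicate 1 arrays (0.341 and 0.291). For Pif1 the call held without TCR replicate 1 (0.0178) and without both replicate 1 arrays (0.0474), and was lost without any other single array (0.0505 to 0.157).

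2610318N02Rik rose from 291, 278 and 170 to 886, 1166 and 897, a log2 change of 1.95 ± 0.28 (adjusted p = 0.00554). Like Cdca8, Sgo1 and Pif1 it had its highest signals in double-positive cells, at 1395 to 2294. For Cenpe the TCR:HEL single-positive signals overlapped the double-positive ones, which ran from 353 to 1252. 2610318N02Rik passed without both replicate 1 arrays as well (0.0418).

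Of the 48 measured mitosis and kinetochore genes, taken by their brightest probe sets, 2 rose, Cenpe and Sgo1, and none fell. The shares over all probe sets tested were 0.146% higher and 0.073% lower. Changes were positive in 40 and negative in 8, with a median of 0.81. Of all probe sets tested, 51.5% were positive, and their median was 0.01. The median of the 48 was 0.53, 1.01 and 0.73 in the 3 same-numbered pairs and 1.00 without both replicate 1 arrays. The groups did not overlap in 16 of the 48, all higher in TCR:HEL cells. Over all probe sets tested they did not overlap in 5.74% on the higher and 4.89% on the lower side. With the replicate block 7 rose; named after their values were seen, the 5 additions were Esco2, Bub1b, Depdc1b, Nek2 and the brightest probe set of Cdca8. Depdc1b, for example, had 206, 209 and 182 against 438, 1433 and 674 (1.84 ± 0.36, adjusted p = 0.0576, and 0.0134 with the block).

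DNA replication and S phase genes gave no call in limma among 35 measured (6 higher at an unadjusted p under 0.05), 29 positive and 6 negative, with a median of 0.38. The smallest p-values belonged to Clspn, a checkpoint adaptor (115, 152 and 154 against 285, 552 and 325, adjusted p = 0.0741), and Gins2, a subunit of the replicative helicase (90.7, 341 and 103 against 600, 943 and 438, adjusted p = 0.111). Both passed with the replicate block (0.0484 and 0.0331), and their groups did not overlap.

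Division genes are abundant in double-positive cells, so double-positive markers are given beside them. None of 17 measured double-positive stage genes passed in limma (3 higher and 2 lower at an unadjusted p under 0.05), 10 were positive and 7 negative, and the median was 0.26. Their summed signal ran from 7727 to 16876 in TCR and from 13706 to 15347 in TCR:HEL single-positive cells, which overlapped, and no member was at 0. Cd8a (above) and Arpp21, a brain and thymus phosphoprotein at 2.65, 20.7 and 50.2 against 119, 73.3 and 115 (adjusted p = 0.151), were higher in the TCR:HEL arrays, whereas the transporter Slc16a5 was lower, at 358, 675 and 540 against 257, 293 and 181 (adjusted p = 0.235). The part of double-positive cells in the division genes was not tested.

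**Figure D3:**
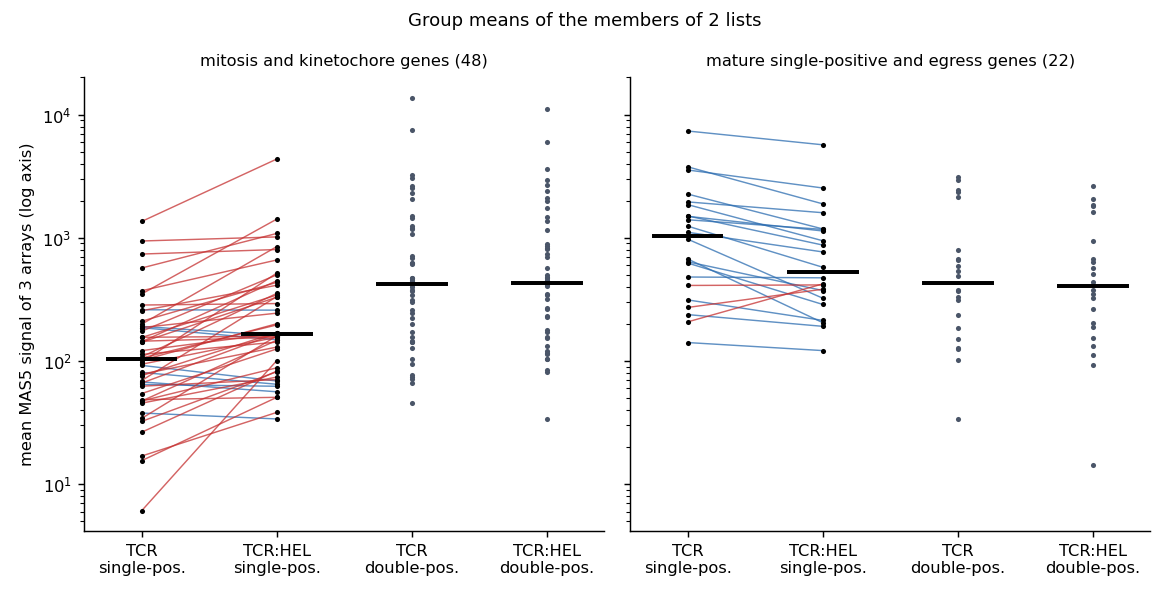
Mean signal of 3 arrays (log axis) in each group for the 48 mitosis and kinetochore genes (left) and the 22 mature single-positive and egress genes (right), with lines joining the single-positive groups (red for a gain in TCR:HEL, blue for a loss) and black bars at the median. The lines run up in most mitotic genes, toward the double-positive levels, and down in all but a few of the mature genes.

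Among the genes that fell, 2 are neighbours. Tmie, known for its part in the mechanotransduction channel of inner ear hair cells, had 1007, 585 and 1261 in TCR and 37.3, 128 and 137 in TCR:HEL single-positive cells. The fall, -3.13 ± 0.45 on the log2 scale (adjusted p = 0.00554), was the deepest of all probe sets that passed, and double-positive arrays had 48.5 to 196. Its neighbour Als2cl had 795, 957 and 1174 against 286, 337 and 348 (-1.53 ± 0.29, adjusted p = 0.0449), with double-positive arrays at 185 to 452. RefSeq places the 2 genes head to head on chromosome 9 with 46 bases between their annotated spans. The starts of the Als2cl transcripts in the promoter table lie further on, with 100 and 248 bases between them and the start of Tmie. The stretch between the spans is shown, in lower case and on the Als2cl strand, because it separates the only adjacent genes that both passed.
Tmie to Als2cl, chr9:110880074-110880119, plus strand: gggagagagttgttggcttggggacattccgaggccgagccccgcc
It has 67.4% G and C and 3 CG steps on GRCm38.p6. Of the 44 protein-coding genes next to the 22 called genes that RefSeq places, 20 were tested, and Tmie and Als2cl were the single adjacent pair in which both passed.

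The Tmie call held without any 1 of the 6 arrays and was lost without both replicate 1 arrays (adjusted p = 0.0768). A dimmer Tmie probe set that missed the filter on low signal went from a mean of 146 to 8.96, and another stayed dim, at 18.6 and 32.2. For Als2cl the call was lost without any 1 of the 6 arrays (0.0652 to 0.199) and without both replicate 1 arrays (0.262), although the 3 pairs gave -1.42, -1.46 and -1.71.

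Chd7, a chromatin remodeller mutated in human CHARGE syndrome, had 458, 813 and 422 in TCR and 164, 33.4 and 22.7 in TCR:HEL single-positive cells (-2.99 ± 0.56, adjusted p = 0.0393). TCR:HEL replicate 1 lay closest to the TCR arrays. Without it the adjusted p was 0.00965 and without both replicate 1 arrays 0.0316, while leaving out any other single array (0.0797 to 0.201) or the hybridization period as a block (0.0594) took the call away. Mn1, a transcriptional regulator fused in some human leukaemias, had 489, 205 and 376 against 87.1, 96.8 and 79.3 (-1.77 ± 0.31, adjusted p = 0.0278). Its call held without TCR replicate 2 (0.0104) and was lost without any other single array (0.0911 to 0.112) and without both replicate 1 arrays (0.314).

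Rflnb encodes refilin B, which binds the actin cross-linker filamin. It fell from 650, 609 and 589 to 122, 63.7 and 102 (-2.53 ± 0.42, adjusted p = 0.0178), whereas its second, dimmer probe set changed by 0.57 (adjusted p = 0.893). Cpm, carboxypeptidase M of the cell surface, had 504, 535 and 543 against 153, 217 and 183 (-1.45 ± 0.26, adjusted p = 0.0308). Gm11346, a predicted gene without a role given here, had 782, 706 and 819 against 208, 240 and 271 (-1.62 ± 0.29, adjusted p = 0.0299). The 3 TCR arrays lay close together for each of these genes. Even so, the calls of Cpm and Gm11346 were lost without any 1 of the 6 arrays (0.069 to 0.165 and 0.0742 to 0.153) and that of Rflnb held without TCR:HEL replicate 1 (0.0491) and no other (0.0594 to 0.106). Without both replicate 1 arrays the adjusted p-values of Cpm, Gm11346 and Rflnb were 0.294, 0.32 and 0.126, and with the period block that of Cpm was 0.0541.

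Als2cl was the 1 call among 22 measured genes that mark maturing cells about to leave the thymus, where 0.073% of all probe sets tested were lower. At an unadjusted p under 0.05 in limma, 8 were lower and 1 higher. The groups did not overlap in 9 on the lower and 1 on the higher side, against 4.89% and 5.74% of all probe sets tested. Of the 22 genes, 3 had positive and 19 negative changes, the median was -0.43, and the 3 pairs gave medians of -0.54, -0.50 and -0.67. The summed signal ran from 30760 to 33380 in TCR and from 20414 to 23751 in TCR:HEL single-positive cells, without overlap. Gimap7, a GTPase of the GIMAP family, had 589, 569 and 862 against 203, 203 and 209 (-1.62 ± 0.32, adjusted p = 0.0602) and passed with the replicate block (0.0348). Slfn5, a Schlafen protein also induced by interferon, had 840, 505 and 528 against 314, 289 and 261 (-1.04 ± 0.29, adjusted p = 0.289). Treml2, a receptor of the TREM family, had 1285, 1829 and 1402 against 862, 935 and 823 (-0.76 ± 0.23, adjusted p = 0.344). The 3 positive members, named after their values were seen, were Ramp1 (0.93 ± 0.30, adjusted p = 0.431, without overlap), St8sia6 (0.48) and Gimap5 (0.06).

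Other measured lists gave no call in limma. The NF-kB pathway (13 genes, median -0.04), proximal receptor signalling (16, -0.09) and calcium and NFAT signalling (10, -0.03) had medians near that of all probe sets, with 2, 0 and 1 higher and 0, 1 and 0 lower members at an unadjusted p under 0.05. Within them Nfkbid, a nuclear IkB protein, stood at 1709, 3167 and 1461 against 3936, 6900 and 2839 (1.09 ± 0.39, adjusted p = 0.525). Apoptosis could be seen in small part only, with 8 of 53 pro-apoptotic genes measured (median -0.01) and 6 anti-apoptotic ones (0.06), and 0 and 1 of them reached an unadjusted p under 0.05. Bcl2 had 1112, 1289 and 2394 against 2135, 1405 and 2004, which overlapped, and the main death-inducing genes Nr4a1 and Bcl2l11 were not measured here, nor was Foxp3.

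Interferon-stimulated genes (15, median -0.13), CD4 lineage genes (9, -0.33) and CD8 single-positive genes (4, 0.67) had no member that passed, and 3, 1 and 2 members with an unadjusted p under 0.05. Runx3, the factor of the CD8 lineage, had 1566, 728 and 879 in TCR and 797, 851 and 583 in TCR:HEL cells. All 13 measured oxidative phosphorylation genes had positive changes, between 0.02 and 0.81, and none passed (1 at an unadjusted p under 0.05). Of all probe sets tested, 51.5% were positive. The list's median was 0.32, 0.43 and 0.09 in the 3 same-numbered pairs. In the third pair some members were negative, with Ndufb2 the lowest at -0.37.

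**Figure D4:**
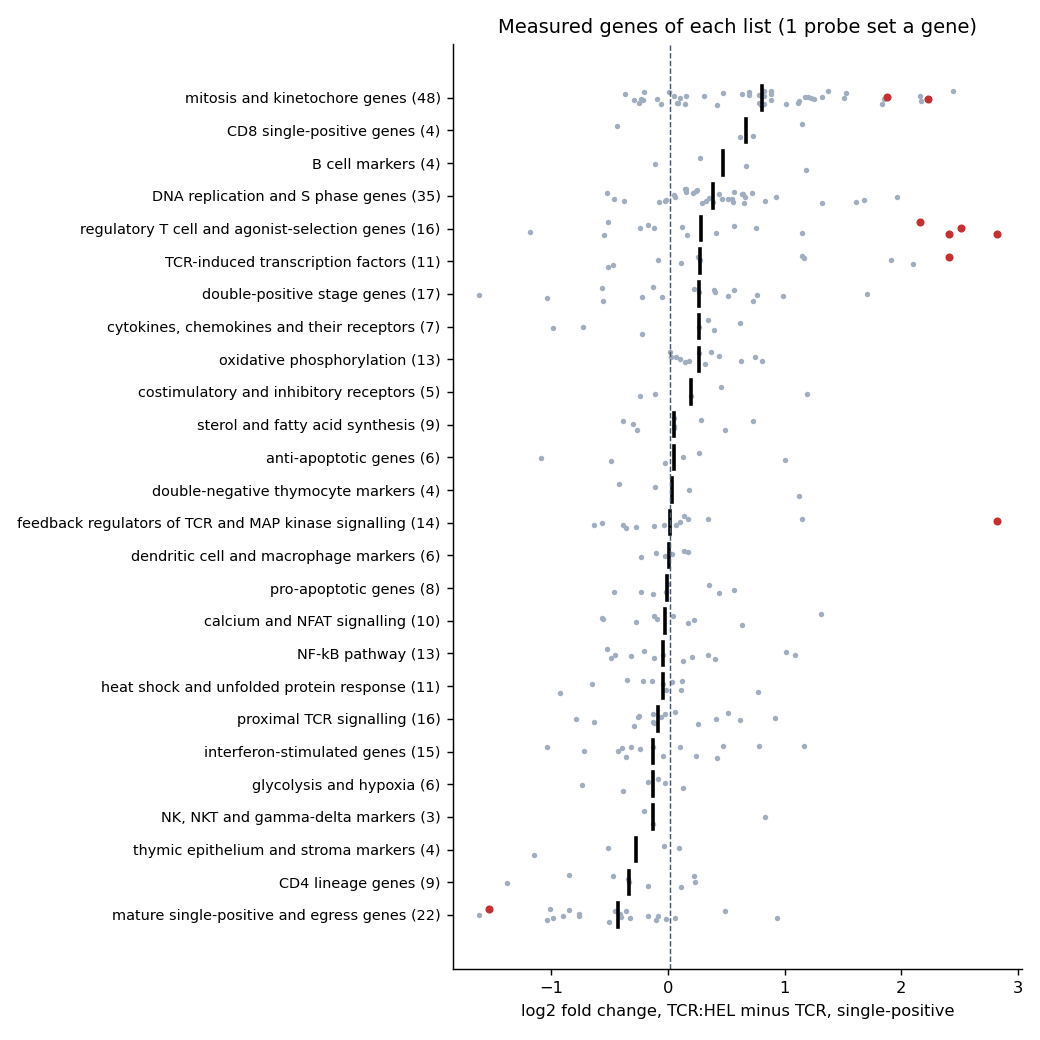
Log2 fold change of TCR:HEL over TCR single-positive cells for the measured members of each list (number in parentheses), with a point per gene, red where it passed, a black bar at the list's median and a dashed line at the median of all probe sets tested. Mitosis and kinetochore genes have the highest median, 0.81, and mature single-positive and egress genes the lowest, -0.43.

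Markers of other cells were at hand in small number, and none passed. Summed signals of 4 B cell markers ran from 351 to 482 in TCR and from 489 to 599 in TCR:HEL single-positive cells, mostly through Fcmr (99.4, 77.7 and 34.8 against 190, 242 and 106). For 3 markers of NK, NKT and gamma-delta cells the sums were 674 to 833 against 907 to 1599. That gain came through Cd163l1 (668, 519 and 615 against 1111, 1465 and 770), whose double-positive means were higher still, 1432 in TCR and 1890 in TCR:HEL mice. The other members, Klre1 and Zbtb16, changed by -0.21 and -0.13. For 4 markers of epithelium and stroma the sums were 2362 to 4129 against 1508 to 1970, mostly through Epcam (3590, 1927 and 2730 against 1550, 1080 and 1010). Sums of 6 dendritic cell and macrophage markers, 840 to 1660 against 956 to 1757, and of 4 double-negative thymocyte markers overlapped. No marker of these lists was at 0, erythroid and granulocyte markers were not measured, and the part of other cells in the results was not tested.

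The antigen's effect in single-positive cells was last set against that in double-positive cells. No probe set passed between the double-positive groups by limma (339 at an unadjusted p under 0.05), and the difference between the effects passed for 1 probe set (0.0073%, with 609 at an unadjusted p under 0.05), that of Osbp2. In double-positive cells Osbp2 had 96.6, 53.3 and 128 in TCR and 36.1, 26.1 and 26.9 in TCR:HEL mice. This change of -1.19 was opposite to that in single-positive cells, and these TCR:HEL signals were all under the arrays' medians. The difference of the effects was 3.53 ± 0.50 on the log2 scale (adjusted p = 0.0487). With the replicate block, with the period block, without both replicate 1 arrays or without any 1 single-positive array, no probe set passed this test and the Osbp2 call was lost. For Crispld2, the difference was of like size, 3.54 ± 0.59, and did not pass (adjusted p = 0.0715), nor did those of Ikzf2, Niban1 and Cdca8 by 1 probe set each (2.21, 2.45 and 2.55, each with an adjusted p of 0.0715). For the other genes that passed in single-positive cells the adjusted p of the difference was 0.126 or higher, so that a change particular to the single-positive stage was not shown for them.

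A further 5 probe sets passed without a single gene symbol. Of these, 3 fell, from group means of 4777, 2293 and 5080 to 980, 553 and 1478, and 2 rose, from 82.4 and 1019 to 472 and 3622. The second of those that fell, from 2088, 2053 and 2740 to 495, 654 and 511, passed under every alternative run.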

How the data were processed

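Total RNA of sorted thymocytes was measured on 12 one-colour arrays in 4 groups of 3 biological replicates, grouped by sample titles. The authors deposited MAS5 intensity values on a linear scale, per the submitters' processing notes, which give no version, and the values were used as scaled. Hybridization days came from the deposited array records. After removal of 64 control probe sets, 13703 of 22511 were kept, those with a signal over the array's own median on 3 or more of the 12.

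Signals were transformed as log2(signal + 16) and fitted in limma 3.58.1 (R 4.3.3) with 4 group means and a variance trend, leaving 8 residual degrees of freedom, to which moderation added 7.01. P-values are two-sided, with Benjamini-Hochberg adjustment over all probe sets tested. The arrays' number limits the precision. The platform annotation gave 1 symbol to 9319 probe sets kept, several to 149 and none to 4235. RefSeq tables of GRCm38.p6 gave promoters for 17 of 23 called genes.

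The comparison, the lists and the genes were chosen with earlier results of these data known. Named genes were all called probe sets with 1 symbol, up to 4 genes with the smallest p of each list, genes that check the sort and signalling, and the brightest markers of other cells. Each list used the brightest probe set of a gene. Promoters were also searched for AP-1 (TGANTCA), NR4A (AAAGGTCA) and E2F (TTTCGCGC) sites on both strands, found in 6.75%, 1.34% and 0.256% of all promoters and in none of the 23 promoters of called genes.

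Between the single-positive groups, deviations of same-numbered arrays correlated at r = 0.159, 0.204 and 0.188 over probe sets. Other pairs gave -0.123 to -0.0686. Deviations from a group's mean cancel within the group, so positive values for same-numbered pairs draw the other pairs below. The numbers were taken as pairs by these data, and pairing of the double-positive arrays was not checked. Alternatives changed the pseudocount, filter, normalization, variance model, arrays in the fit, replicate block and hybridization period. The labels do not say whether replicates are separate mice, so p-values measure the spread between these samples.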

Additional observations from a re-analysis of the deposited data

Results flagged for a closer look

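The effect of HEL on Osbp2 passed a test of the difference between the stages in the fit reported. Its log2 change was 2.34 in single-positive and -1.19 in double-positive cells, a difference of 3.53 ± 0.50 (limma, adjusted p = 0.0487), with all 3 TCR:HEL arrays above the TCR arrays at the first stage and all 3 below at the second. This was the 1 probe set of 13703 for which the difference passed. Its TCR single-positive and TCR:HEL double-positive signals were all under the arrays' medians, so the difference rests on dim signals. The second Osbp2 probe set was too dim to be tested, with double-positive means of 13.5 in TCR and 34.5 in TCR:HEL mice. The call was lost, and no probe set passed, with the replicate block, the period block, a pseudocount of 1, no filter, a filter on 6 arrays or quantile normalization, without both replicate 1 arrays and without any 1 single-positive array.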

How the results depend on the processing

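The count of probe sets that differed between the single-positive groups was 30. It rose to 47 with a replicate block and to 62 with a replicate block on the single-positive arrays alone, a fit chosen after seeing the data. Without both replicate 1 arrays, which make up a hybridization period of their own, it was 16, and without 1 single-positive array in turn it ran from 13 (without TCR:HEL replicate 3) to 22 (without TCR replicate 2), with 21, 18, 15 and 17 without TCR replicate 1, TCR replicate 3, TCR:HEL replicate 1 and TCR:HEL replicate 2. The other alternatives gave 23 to 42, and the hybridization period as a block 33 (25 higher and 8 lower). The count for the difference between stages was 1 and became 0 with a pseudocount of 1, no filter, a filter on 6 arrays, quantile normalization, the replicate block, the period block, without both replicate 1 arrays, and without any 1 array (lowest and highest 0), and 4 with a pseudocount of 64. Of the 25 probe sets with a symbol, 9 passed in every alternative that held them, and none of the 25 changed sign. With the replicate block no call among the genes named by rule changed beyond those given. Fewer samples remain in the fits that leave arrays out. The cause of the other changes was not tested. With 3 arrays a group and dim signals, a p that misses the threshold does not show that levels were alike.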
